A study of Homo sapiens with 12 samples.

Results

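Interferon-stimulated genes are genes that cells switch on when an interferon, a signalling protein of antiviral defence, binds its receptor. A list of 56 such genes, drawn up by gene name with earlier results of these data known, was followed in BT474 cells through the acquisition of lapatinib resistance. All 56 were found among the 26485 genes of the expression table, and 47 of them had enough signal to be tested. BT474 cells, labelled wild type, are a long-used breast cancer line with amplified HER2, and lapatinib blocks the kinase activity of HER2 and EGFR. The groups were Control cells at day 0, drug-tolerant persister (DTP) cells at day 9, drug-tolerant expanding persister (DTEP) cells at month 6 and long-term resistant (LR) cells at month 9 of 1 µM lapatinib, which was renewed every 3 days. Each group held 3 libraries of bulk mRNA. The treatment field of the Control libraries also reads lapatinib at 1 µM, and they were taken as the untreated start on the strength of titles that say Control and day 0. The study describes the 3 libraries as technical replicates and elsewhere as plates grown side by side, so errors and p-values below measure the spread between libraries and not that between independent derivations. The later groups were populations that regrew in the drug, and no label gives their clonal make-up.

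Type I and type III interferons bind receptors that activate the JAK1 and TYK2 kinases. These phosphorylate STAT proteins such as STAT2, which joins IRF9 in the factor ISGF3, and ISGF3 binds the interferon-stimulated response element in the promoters of its target genes. The products of those genes sense viral RNA, degrade or block it, restrict viral entry and release, or tag proteins with the ubiquitin-like protein ISG15. In tumour cells a part of the same programme can be expressed without infection.

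Libraries held from 16383363 to 25030482 reads assigned to genes. Values are normalised read counts, that is CPM on library sizes scaled by a trimmed-mean factor, so that a single read was worth 0.0412 to 0.0576 and a library without a read allows a level of up to 0.124 to 0.173 (3 reads, counting error only). Levels are compared between libraries for the same gene, not between genes, since they are not divided by gene length. Control libraries resembled each other most (Pearson's r across genes 0.997 to 0.998) and DTEP libraries least (0.934 to 0.982), with DTEP replicate 3 standing apart from the other DTEP libraries. The 8 luminal marker genes of BT474 were present in every library. Of 6 immune cell markers, CD68 (0.872 to 3.54) and LYZ (0 to 4.79) had enough signal to be tested, and the other 4 had 0 to 4 reads in each group. In bulk RNA, fewer cells that express a gene and less RNA per cell cannot be told apart.

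The response element is short enough to be seen in the promoter. Its core was searched for as GAAANNGAAA, or TTTCNNTTTC on the other strand, in the 250 bases before and 50 bases after each transcript start in the RefSeq promoter table on GRCh38.p14, for the 43 of 56 members the table held. The core was present in 26 of the 43 promoters (60.5%), against 996 of all 27305 promoters (3.65%) and 279 of the 10688 promoters of genes tested here (2.61%). The 4 promoters below belong to the members with the largest change between DTEP and LR cells that hold the core. They were picked for holding the core, which not all members have. The core is in capitals, and the 250 bases before the transcript start are written 5′ to 3′ on the strand of the gene. IFI6 lies on the minus strand at chr1:27672193-27672442 and holds 3 cores, IFIT1 on the plus strand at chr10:89392373-89392622 holds 2, DDX60 on the minus strand at chr4:168318753-168319002 holds 2, and IFI44 on the plus strand at chr1:78649539-78649788 holds 1. The DDX60 window precedes a transcript start that lies inside the outer limits of the annotated gene.
IFI6: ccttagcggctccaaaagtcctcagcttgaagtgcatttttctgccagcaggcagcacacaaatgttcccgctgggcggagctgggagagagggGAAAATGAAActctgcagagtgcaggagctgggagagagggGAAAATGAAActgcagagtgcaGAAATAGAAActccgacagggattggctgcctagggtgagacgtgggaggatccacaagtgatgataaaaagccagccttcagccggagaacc
IFIT1: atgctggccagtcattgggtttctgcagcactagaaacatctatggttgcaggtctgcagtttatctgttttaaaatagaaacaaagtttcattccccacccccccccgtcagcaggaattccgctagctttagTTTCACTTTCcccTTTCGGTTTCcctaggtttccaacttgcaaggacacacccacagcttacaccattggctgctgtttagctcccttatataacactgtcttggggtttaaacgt
DDX60: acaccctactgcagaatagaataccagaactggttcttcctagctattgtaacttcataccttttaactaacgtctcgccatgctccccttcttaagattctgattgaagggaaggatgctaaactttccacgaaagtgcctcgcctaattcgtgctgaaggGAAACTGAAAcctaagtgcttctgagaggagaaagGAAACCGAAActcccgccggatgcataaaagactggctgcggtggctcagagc
IFI44: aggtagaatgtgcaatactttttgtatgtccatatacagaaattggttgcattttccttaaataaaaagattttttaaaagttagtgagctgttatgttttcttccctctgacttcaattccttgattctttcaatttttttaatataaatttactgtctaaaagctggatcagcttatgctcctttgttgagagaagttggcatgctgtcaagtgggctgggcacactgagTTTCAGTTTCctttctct

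The core was about as frequent in members that rose as in the others. It was present in 8 of 13 promoters of members called higher in LR than in DTEP (61.5%), in 14 of 23 of members tested and not called higher (60.9%) and in 4 of 7 of members too low to test (57.1%). The called members DDX58, IRF9, OAS1, UBE2L6 and HERC6 had no match in the window, which says only that these letters are not there. BST2 and IFITM3, which moved in opposite directions below, both hold it.

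Across the list the largest shared change was between DTEP and LR. A gene was called when its limma p, adjusted by Benjamini-Hochberg over the 13794 genes tested, was below 0.05 and its absolute log2 change was above 2, and calls are those of limma unless another tool is named. Log2 changes are on the log2(value + 1) scale, which understates the change of low genes. In LR against DTEP 15 of 47 members were called higher, where 0.225% of all genes tested were, and 0 were called lower, where 0.457% of all genes were. These 15 were part of only 31 genes called higher in the whole table. The median log2 change of the members was 1.42 beside -0.07 over all genes, and 42 of 47 were positive. At an adjusted p below 0.05 alone, 31 of 47 members were higher (3.04% of all genes) and 0 were lower (4.31% of all genes). In 37 of 47 members every LR library lay above every DTEP library (9.15% of all genes), and in 22 of 47 every LR library lay above the libraries of all other groups (4.93% of all genes). For the 0 members called lower by limma, 1 had an unadjusted p below 0.05, edgeR called 0 and DESeq2 called 2, IFITM3 and MX2.

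Of the 47 members, 6 (IFI27, IFI44, IFIT3, OAS1, OAS2 and OASL) reached the filter (3 or more libraries at 1 or above) only with the LR libraries, so they could be tested only because they were high there. All 6 are among the 37 and the 22 members counted above for LR libraries that did not overlap others, and those 2 counts were not restricted. Among the 41 members that passed without the LR libraries, 11 were called higher in LR than in DTEP, against 26 of 13608 genes that passed in the same way, and their median log2 change was 1.335. Of the 41, 36 had a positive change and 25 were higher at an adjusted p below 0.05 alone, against 5893 and 373 of the 13608 genes. A further 5 members (BST2, IFIT1, IFITM2, SLFN13 and UBE2L6) reached the filter only with the DTEP and LR libraries, and counts restricted to the 36 members that passed on Control and DTP libraries are given beside each later comparison. In LR against DTEP 9 of these 36 were called higher, against 24 of 13155 genes that passed in that way. The 9 members below the filter were IFI44L, IFITM1, XAF1, SAMD9L, TRIM22, EPSTI1, GBP1, LAMP3 and SLFN11.

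In the earlier transitions the members had no shared direction, and genes at large were also called both ways. In DTP against Control 0 of 47 were called higher (1.01% of all genes) and 3 lower (3.9% of all genes), and the median log2 change was -0.03 beside -0.01 over all genes. For the 0 called higher by limma, 7 members had an unadjusted p below 0.05 with a positive change, and edgeR and DESeq2 also called 0. At an adjusted p below 0.05 alone, 6 of 47 members were higher (25.2% of all genes) and 10 were lower (28.8% of all genes). In DTEP against DTP 7 members were called higher (8.13% of all genes) and 6 lower (7.02% of all genes), with a median log2 change of 0.01 beside 0.08. Of the 7 called higher, BST2, IFITM2, SLFN13 and UBE2L6 could be tested only because they were high in DTEP and LR. Among the 36 members that passed on Control and DTP libraries, 3 were higher and 6 lower, against 915 and 969 of 13155 genes. Against Control, DTEP cells had 5 members called higher (4.43% of all genes) and 6 lower (6.2% of all genes), and LR cells 18 higher (5.03% of all genes) and 3 lower (7.8% of all genes). Among the same 36 members, DTEP cells had 1 higher and 6 lower than Control (402 and 855 of 13155 genes), and LR cells 8 higher and 3 lower (477 and 1076 of 13155 genes). The comparisons share libraries, so they are not independent of each other. The 18 members called higher in LR than in Control were DDX58, IRF7, IRF9, IFIT1, IFIT2, IFIT5, OAS1, OAS2, OAS3, OASL, SLFN13, IFITM2, BST2, ISG15, UBE2L6, IFI6, IFI27 and IFI44, and the 3 called lower were MX2, IFITM3 and IFI35. Of the 18, IFIT2 was not called without LR replicate 1 (log2 1.56) or without Control replicate 2 (1.945), nor IFI27 without LR replicate 1 (1.93) or LR replicate 2 (1.71). With any 1 LR library left out, IFI44, OAS1, OAS2 and OASL no longer passed the filter, so their calls were lost as well. In all, 28 members were called in at least 1 of the 5 comparisons and 19 in none. The share of all genes called at least once was not counted, so these numbers do not set the list apart from other genes.

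**Figure D1:**
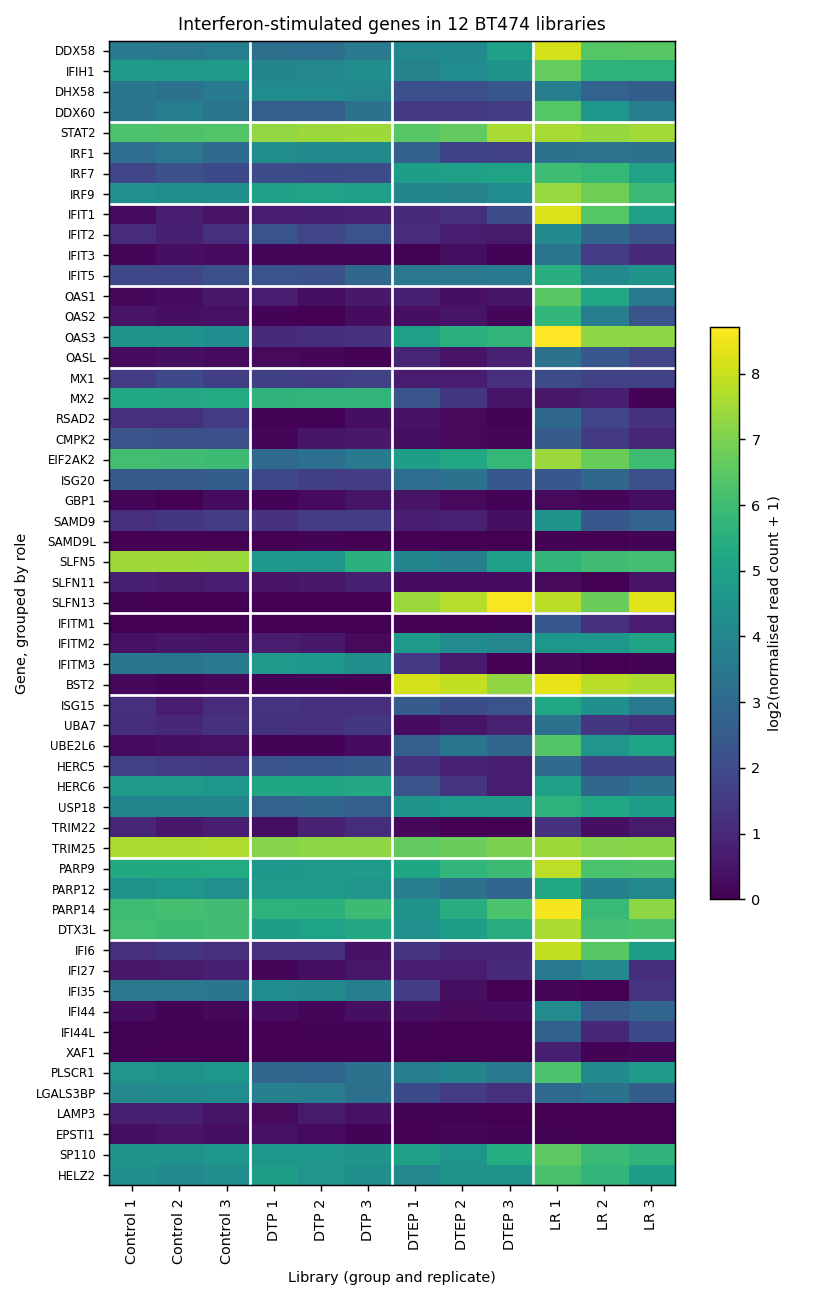
Level of the 56 interferon-stimulated genes (rows, grouped by role and divided by white lines) in the 12 libraries (columns), coloured by log2(normalised read count + 1). LR replicate 1 is the brightest column for 33 of the 47 members tested, BST2 and SLFN13 turn from dark to bright between DTP and DTEP, and MX2 and IFITM3 turn from bright to dark.

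Among the RNA sensors, DDX58 and DDX60 were called higher in LR than in DTEP. DDX58 (RIG-I) and IFIH1 (MDA5) recognise viral RNA in the cytoplasm, DHX58 (LGP2) modulates both, and DDX60 is a related helicase with antiviral activity. DDX58, on chromosome 9, stood at 11.3, 10.3 and 11.7 in Control, 8.19, 7.85 and 11 in DTP, 15.7, 16.6 and 31.0 in DTEP and 280.3, 85.1 and 87.0 in LR. Every LR library was above every other library, with a log2 change of 2.61 ± 0.40 (SE) against DTEP (adjusted p = 0.00631). DDX60 was 9.11, 12.4 and 9.32 in Control, 5.27, 5.33 and 8.46 in DTP, 1.82, 1.77 and 2.02 in DTEP and 83.5, 23.0 and 12 in LR, and its change in DTEP against DTP was too small to be called (log2 -1.33 ± 0.50, adjusted p = 0.0319). Its rise in LR was 3.37 ± 0.50 on the log2 scale (adjusted p = 0.00624), but LR replicate 3 was within the range of the Control libraries. IFIH1 (log2 1.76, adjusted p = 0.00624) did not reach the threshold of 2, and DHX58 had a log2 change of 0.81 (adjusted p = 0.065). At the step before, DHX58 fell from 18.0, 17.7 and 15.7 in DTP to 3.35, 3.42 and 4.04 in DTEP (log2 -1.98, adjusted p = 2.68e-05). That fall was just short of a call by limma and was called by edgeR and DESeq2.

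**Figure D2:**
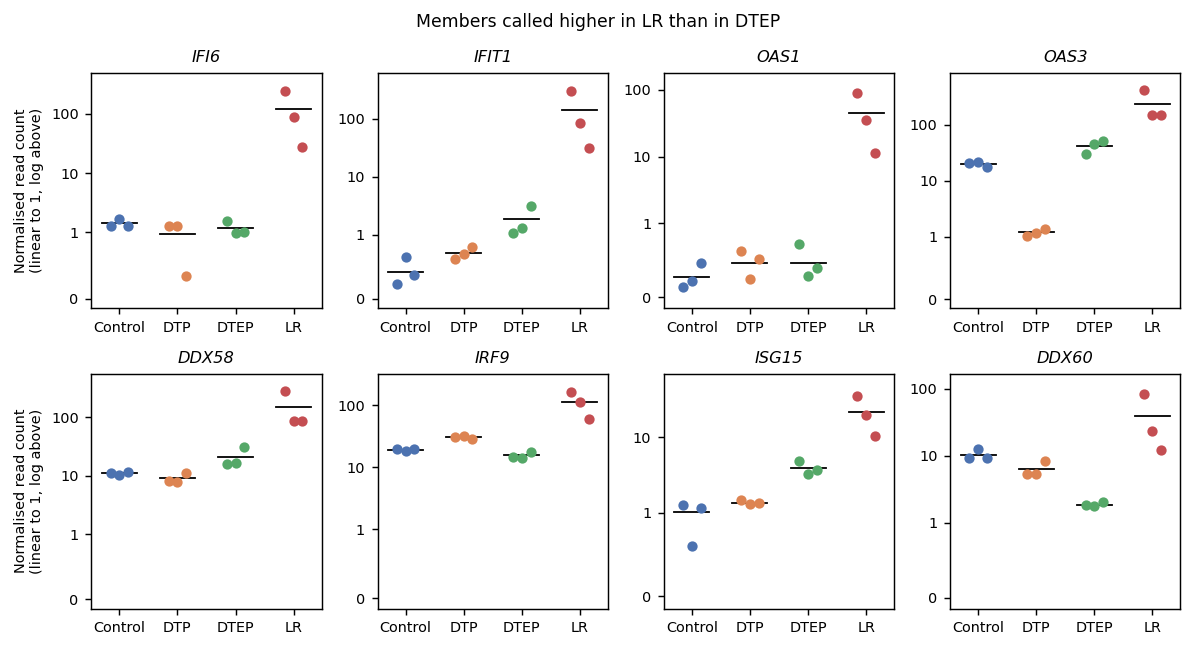
Normalised read count (vertical axis, linear from 0 to 1 and logarithmic above) of 8 members called higher in LR than in DTEP, with a point for each library in the order of replicates 1 to 3 and a line at the mean of each group of 3. In all 8 genes the LR libraries lie above the DTEP libraries, with LR replicate 1 the highest of them.

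Of the 4 transcription factors on the list, IRF9 rose in LR and IRF7 rose earlier, in DTEP. IRF9, the DNA-binding subunit of ISGF3, read 20.01, 18.6 and 19.5 in Control, 30.9, 31.7 and 29.0 in DTP, 14.9, 14.0 and 18.0 in DTEP and 163, 113 and 60.6 in LR. Its LR libraries lay above all others (log2 2.66 ± 0.27 against DTEP, adjusted p = 0.00194). IRF7, which drives expression of interferon genes themselves, was 2.53, 3.48 and 2.84 in Control, 3.13, 2.91 and 2.99 in DTP, 28.7, 30.6 and 33.1 in DTEP and 63.5, 54.9 and 31.6 in LR. It was called higher in DTEP than in DTP (log2 2.98 ± 0.23, adjusted p = 4.1e-07), and the DTEP and LR libraries overlapped. IRF1, a factor of the interferon-gamma response, was highest in DTP at 18.6, 16.8 and 16.6, beside 7.59, 10.0 and 7.17 in Control, and it fell to 5.55, 2.39 and 2.25 in DTEP before standing at 8.62, 8.91 and 8.48 in LR. The fall was called (log2 -2.14 ± 0.25, adjusted p = 1.08e-05), but leaving out DTEP replicate 2 gave -1.99 and leaving out DTEP replicate 3 gave -1.96, which ends the call. STAT2 was not called in any comparison. It read 75.3 to 80.3 in Control, 158 to 171 in DTP, 86.3, 98.0 and 192 in DTEP and 161 to 191 in LR, so that DTEP replicate 3 was at the level of LR.

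The IFIT proteins bind viral RNA that lacks the marks of host RNA. The 4 genes sit side by side on chromosome 10 and all lie within the span of LIPA on the annotation. Reads were counted by the default of ignoring strand, so where exons of 2 genes overlap, reads may be left out or counted for the wrong gene. Whether exons overlap here was not examined. IFIT1 had the second largest change of the list between DTEP and LR. It was 0.23, 0.652 and 0.373 in Control, 0.626, 0.691 and 0.806 in DTP, 1.05, 1.32 and 3.14 in DTEP and 306, 84.5 and 30.7 in LR, where the mean was 76.5 times that of DTEP (log2 5.12 ± 0.60, adjusted p = 0.00197). Its lowest LR library was above the highest library of any other group. IFIT2 was 1.15, 0.707 and 1.3 in Control, 3.76, 2.57 and 3.74 in DTP, 1.15, 0.577 and 0.561 in DTEP and 16.5, 6.36 and 3.88 in LR. It was called higher in LR than in DTEP (log2 2.30 ± 0.36, adjusted p = 0.00688), and without LR replicate 1 the change was 1.78 and the call was lost. IFIT3 had 276 reads in LR and 8 in DTEP, a ratio of 34.8 (95% counting interval 17.4 to 81.5), yet on the log2(value + 1) scale its change was 1.83. IFIT5 had means of 2.95 ± 0.438 (SD, n = 3) in Control, 10.4 ± 0.444 in DTEP and 27.1 ± 14.1 in LR, and of the 5 comparisons it was called only in LR against Control (log2 2.72 ± 0.31, adjusted p = 1.02e-05).

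The OAS enzymes make short oligoadenylates that activate the ribonuclease RNase L, and OASL is a relative without that activity. Their 3 core genes follow each other on chromosome 12, with 5255 bases between OAS1 and OAS3 and 5268 between OAS3 and OAS2. OAS1 was below 1 in all 9 libraries outside LR, from 0.138 to 0.718, and stood at 89.1, 36.0 and 11.1 in LR (log2 4.56 ± 0.51 against DTEP, adjusted p = 0.00194). OAS2 read 0 to 0.412 outside LR and 53.2, 12.3 and 3.63 in LR (log2 3.57 ± 0.61, adjusted p = 0.00973). OAS3 differed from its neighbours in having a level before resistance. It read 20.9, 21.4 and 18.0 in Control, 1.04, 1.18 and 1.38 in DTP, 30.1, 45.7 and 51.0 in DTEP and 418, 148 and 150.1 in LR. Each step was called, with log2 changes of -3.26 ± 0.34 in DTP (adjusted p = 1.72e-05), 4.26 ± 0.34 in DTEP (adjusted p = 5.34e-07) and 2.32 ± 0.34 in LR (adjusted p = 0.00615). OAS3 was the only member called in all 3 successive steps, and the last of these calls was lost without LR replicate 1. OASL, at 2.52 to 8.49 in LR and below 1 elsewhere, was called higher in LR than in Control (log2 2.20 ± 0.28, adjusted p = 2.31e-05).

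The remaining antiviral enzymes and GTPases went separate ways. EIF2AK2 encodes PKR, the kinase that stops translation when it binds double-stranded RNA. It stood at 66.5, 64.5 and 61.2 in Control, 6.89, 8.14 and 11.1 in DTP, 27.8, 36.2 and 54.2 in DTEP and 167, 106 and 62.6 in LR. The fall in DTP (log2 -2.77 ± 0.32, adjusted p = 3.42e-05) and the rise in DTEP (2.03 ± 0.32, adjusted p = 0.000129) were called, the latter just past the threshold, with 1.89 without DTP replicate 1, 1.996 without DTP replicate 2 and 1.78 without DTEP replicate 3. SLFN5, of the Schlafen family of growth regulators, fell from 177, 178 and 169 in Control to 23.8, 23.7 and 46.2 in DTP (log2 -2.51 ± 0.31, adjusted p = 5.05e-05) and read 14.4, 12.7 and 31.0 in DTEP and 53.6, 64.4 and 68.3 in LR. No later library reached the level of a Control library. SAMD9, an antiviral factor that blocks translation, was 0.281 to 0.741 in DTEP and 20.6, 4.15 and 5.77 in LR (log2 2.55 ± 0.40, adjusted p = 0.00688), with 1.24 to 1.91 in Control and 1.36 to 2.02 in DTP, and its change without LR replicate 1 was 1.93.

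SLFN13, a Schlafen member that cleaves transfer and ribosomal RNA, was the member with the largest log2 change in any of the 3 successive steps. A single read was found in the 3 Control libraries and 0 reads in the DTP libraries, and DTEP libraries held 166, 215 and 392 and LR libraries 225, 105 and 322. DTEP was at least 4709.5-fold higher than DTP (against 3 reads over the group), the fitted log2 change was 7.92 ± 0.37 (adjusted p = 8.6e-09), and LR and DTEP overlapped. MX2, a dynamin-like GTPase that restricts retroviruses, went the opposite way. It was 36.1, 37.0 and 39.0 in Control, 49.4, 51.8 and 51.0 in DTP, 3.97, 1.65 and 0.393 in DTEP and 0.507, 0.664 and 0.0484 in LR. The fall in DTEP was -4.29 ± 0.36 on the log2 scale (adjusted p = 7.04e-07), and its neighbour MX1, 11165 bases away on chromosome 21, had log2 changes of -0.80 in DTEP and 0.94 in LR and was not called. RSAD2 (viperin) and the nucleotide kinase CMPK2, which overlap by 750 bases on chromosome 2, had their lowest levels in DTP and DTEP. RSAD2 was 1.24, 1.25 and 1.96 in Control, 0.0522, 0.0494 and 0.288 in DTP, 0.335, 0.165 and 0.0561 in DTEP and 6.51, 2.55 and 1.41 in LR, so that LR replicate 3 lay within the range of Control. CMPK2 was 3.73, 3.48 and 3.4 in Control, 0.104, 0.444 and 0.518 in DTP, 0.239, 0.165 and 0.112 in DTEP and 4.65, 1.77 and 0.921 in LR, and its LR libraries overlapped Control. Their log2 changes in LR against DTEP were 1.76 and 1.41, and limma called them in no comparison. On the reads, edgeR and DESeq2 called both lower in DTP than in Control, lower in DTEP than in Control and higher in LR than in DTEP (RSAD2 log2 4.24 and 4.26 for the last).

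Of the 4 membrane restriction factors, BST2, IFITM2 and IFITM3 were called at the step from DTP to DTEP, and IFITM1, too low to test, gained its reads at the step to LR. BST2 (tetherin) holds budding virus particles at the cell surface, and the IFITM proteins block entry of viruses through endosomes. BST2 had 7 reads over the 3 Control and 2 over the 3 DTP libraries, and its level was 282, 242 and 154 in DTEP and 343, 222 and 197 in LR. On reads pooled over each group and scaled by library size, DTEP was 6539 times DTP (counting interval 1809.8 to 53997). The fitted log2 change was 7.73 ± 0.25 (adjusted p = 5.33e-10), and DTEP and LR overlapped. IFITM2 was 0.322, 0.435 and 0.373 in Control, 0.574, 0.494 and 0.173 in DTP, 24.8, 17.4 and 15.2 in DTEP and 23.3, 23.6 and 32.9 in LR (log2 3.81 ± 0.21 in DTEP against DTP, adjusted p = 3.32e-08). IFITM3 did the reverse. It was 9.75, 9.51 and 10.7 in Control, 24.9, 23.1 and 18.6 in DTP, 1.72, 0.535 and 0 in DTEP and 0.127, 0 and 0.0484 in LR (log2 -3.84 ± 0.28 in DTEP against DTP, adjusted p = 2.99e-07), and DESeq2, unlike limma and edgeR, also called it lower in LR than in DTEP. IFITM1 lies between both genes on chromosome 11, 4645 bases from IFITM2 and 4404 from IFITM3, and had 0 reads in Control and DTP, 1 in DTEP and 100, 23 and 12 in LR, at least 44.4-fold above Control and 136 times the level of DTEP (counting interval 24.1 to 5424.1). The 3 IFITM genes are close paralogs, so a part of their reads may be assigned to the wrong one, and an antisense gene overlaps IFITM3.

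**Figure D3:**
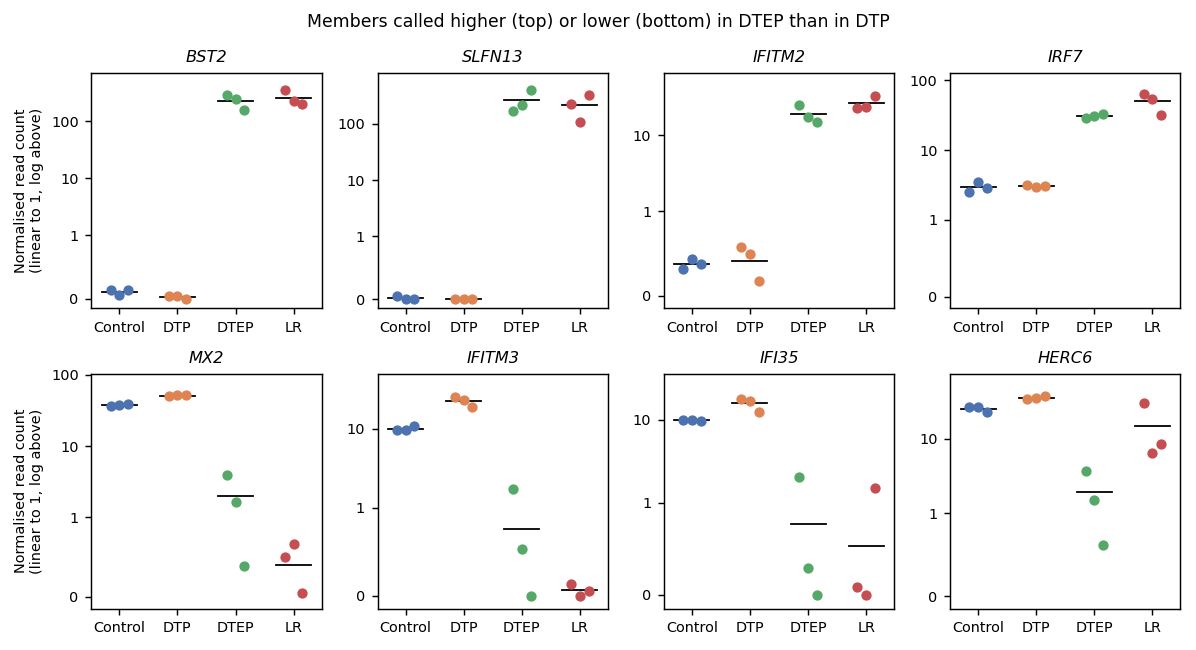
Normalised read count (vertical axis, linear from 0 to 1 and logarithmic above) of 4 members called higher and 4 called lower in DTEP than in DTP, with a point for each library in the order of replicates 1 to 3 and a line at the mean of each group of 3. BST2, SLFN13, IFITM2 and IRF7 are high in LR too, MX2, IFITM3 and IFI35 stay low there, and HERC6 is called higher in LR than in DTEP.

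The ISG15 conjugation pathway attaches ISG15 to other proteins through the activating enzyme UBA7, the conjugating enzyme UBE2L6 and the ligase HERC5, and USP18 removes it. ISG15 was 1.24, 0.598 and 1.16 in Control, 1.46, 1.28 and 1.32 in DTP, 4.83, 3.3 and 3.7 in DTEP and 35.1, 19.9 and 10.5 in LR. It was called higher in LR than in DTEP (log2 2.07 ± 0.33, adjusted p = 0.00688), with 1.97 without DTEP replicate 2 and 1.66 without LR replicate 1. UBE2L6 was 0.184, 0.272 and 0.326 in Control and rose at both late steps, from 0.0522, 0.0494 and 0.23 in DTP over 5.12, 9.56 and 6.74 in DTEP (log2 2.84 ± 0.37, adjusted p = 2.6e-05) to 82.0, 22.4 and 32.5 in LR (2.34 ± 0.37, adjusted p = 0.00688, and 1.82 without LR replicate 1). UBA7 and HERC5 were called in no comparison by limma, with log2 changes of 1.42 (adjusted p = 0.0557) and 1.23 (adjusted p = 0.0349) in LR against DTEP. Both were called higher at that step by edgeR and by DESeq2, which also called HERC5 lower in DTEP than in DTP. HERC6, the neighbour of HERC5 on chromosome 4, fell and rose again. Its level was 26.3, 26.5 and 22.6 in Control, 33.7, 34.6 and 37.4 in DTP, 3.73, 1.52 and 0.617 in DTEP and 29.7, 6.53 and 8.48 in LR. The fall was -3.75 ± 0.47 on the log2 scale (adjusted p = 1.97e-05) and the rise 2.28 ± 0.47 (adjusted p = 0.0209), which was not called without LR replicate 1 (1.655), DTEP replicate 3 (1.91) or DTEP replicate 2 (adjusted p = 0.0933). USP18, which also dampens receptor signalling, followed the order DTP below Control below DTEP, at 5.01 to 6.32, 14.1 to 14.5 and 21.9 to 27.3, and its log2 change of 1.96 in DTEP against DTP (adjusted p = 3.04e-06) was just short of a call. By edgeR and DESeq2 this rise of USP18 was called. TRIM25, a ubiquitin ligase that acts on RIG-I, varied least, with absolute log2 changes of at most 0.47 in the 3 successive steps.

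The PARP9 and DTX3L proteins form a complex that adds ADP-ribose and ubiquitin, and PARP12 and PARP14 are ADP-ribosyl transferases. None of these 4 genes was called in any comparison by limma, and all 4 had positive changes in LR against DTEP. PARP14 had the largest of them. It read 63.5, 69.6 and 65.0 in Control, 48.8, 47.8 and 61.7 in DTP, 21.8, 41.9 and 74.1 in DTEP and 381, 57.4 and 148 in LR, so that DTEP and LR overlapped (log2 1.83 ± 0.55, adjusted p = 0.0575). It was called higher at this step by edgeR (log2 2.13, adjusted p = 0.03725) and by DESeq2 (log2 2.12, adjusted p = 0.00141). DTX3L, at 66.1, 61.6 and 64.6 in Control, 28.2, 32.4 and 37.4 in DTP, 20.2, 28.6 and 41.8 in DTEP and 200.3, 68.0 and 73.6 in LR, had a log2 change of 1.76 ± 0.36 (adjusted p = 0.0193). Both passed the threshold of 2 without DTEP replicate 3 (2.26 and 2.01) or without LR replicate 2 (2.51 and 2.03). PARP9 overlaps DTX3L by 446 bases, and its LR values were 229, 74.3 and 77.9 beside 34.4, 52.5 and 61.1 in DTEP.

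IFI6 led the list, and with a log2 change of 5.28 ± 0.55 (adjusted p = 0.00194) it had the largest rise of all 13794 genes tested between DTEP and LR. It encodes a small hydrophobic protein that protects cells from apoptosis. The gene, at chr1:27666064-27672192 on GRCh38.p14, read 1.29, 1.69 and 1.3 in Control, 1.3, 1.28 and 0.346 in DTP, 1.53, 0.989 and 1.01 in DTEP and 239, 86.0 and 27.6 in LR. Every LR library was far above the other 9, whose ranges overlapped between groups. IFI44, whose protein is cytoplasmic and limits viral replication, was 0.23, 0.0544 and 0.14 in Control, 0.209, 0.0987 and 0.288 in DTP, 0.287, 0.165 and 0.225 in DTEP and 17.5, 4.43 and 6.25 in LR (log2 2.88 ± 0.33, adjusted p = 0.00194). Its neighbour IFI44L, 3644 bases away, had 1 read in DTEP and 132, 18 and 60 in LR, a ratio of 212 with a counting interval of 37.6 to 8415.5. IFI27 was 0.506, 0.544 and 0.699 in Control, 0.104, 0.247 and 0.461 in DTP, 0.67, 0.577 and 1.07 in DTEP and 11.2, 15.4 and 1.21 in LR. It was the least secure of the calls in LR against DTEP (log2 2.11 ± 0.54, adjusted p = 0.0407), and it was lost in 13 of 23 alternatives, among them those without LR replicate 1 (1.775), without LR replicate 2 (1.56) and with the replicate number as a block (adjusted p = 0.0538).

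2 further members fell when cells regrew in the drug. IFI35, a cytoplasmic leucine-zipper protein, was 9.89, 9.84 and 9.64 in Control, 18.0, 16.6 and 12.4 in DTP, 2.01, 0.288 and 0 in DTEP and 0.0845, 0 and 1.5 in LR (log2 -3.39 ± 0.40 in DTEP against DTP, adjusted p = 1.24e-05). LGALS3BP, a secreted galectin-binding glycoprotein, was 16.2, 16.4 and 17.7 in Control, 12.8, 11.9 and 8.29 in DTP, 2.87, 1.89 and 1.23 in DTEP and 6.8, 8.58 and 4.99 in LR. Its fall in DTEP (log2 -2.02 ± 0.25, adjusted p = 1.57e-05) was just past the threshold and was -1.90 without DTP replicate 1, -1.955 without DTP replicate 2 and -1.82 without DTEP replicate 3. All 6 members called lower in DTEP (HERC6, IFI35, IFITM3, IRF1, LGALS3BP and MX2) were highest in DTEP replicate 1 and lowest in DTEP replicate 3. That order was common to genes called lower at this step, as 755 of 969 (77.9%) had it.

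The members too low to test were not all silent in the same groups. XAF1, a proapoptotic factor, had 1 read before LR and 17, 1 and 2 in LR. TRIM22, a ubiquitin ligase, had 43 reads in Control and 42 in DTP cells but 3 in DTEP, and again 48 in LR cells, a ratio of LR to DTEP of 16.2 (counting interval 5.21 to 81.1). LAMP3, a lysosomal membrane protein, and EPSTI1 had 37 reads and 19 reads in Control and 0 reads and 1 read in LR, and for LAMP3 the LR level was at least 12.5-fold lower. SLFN11 had 38 reads in Control and 12 in LR, GBP1 7 to 13 in each group and SAMD9L 3 in all 12 libraries.

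**Figure D4:**
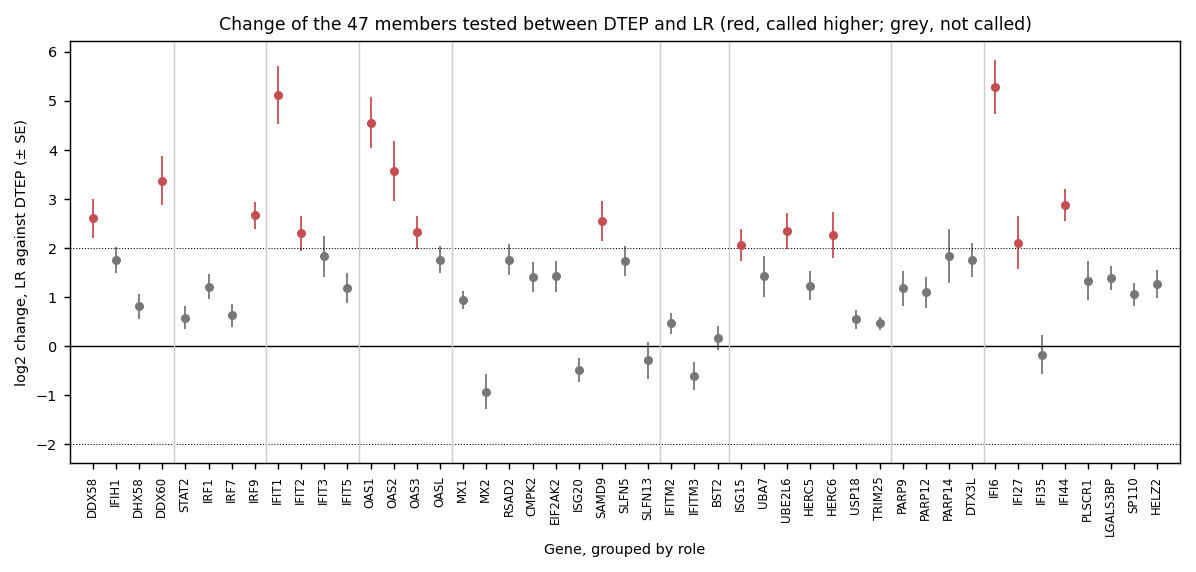
Log2 change on the log2(value + 1) scale of LR against DTEP (vertical axis, point with its SE from limma) for the 47 members tested, grouped by role, with dotted lines at the threshold of 2 in either direction. The 15 members called higher are red, and 5 members, MX2, ISG20, SLFN13, IFITM3 and IFI35, lie below 0.

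The LR libraries differed from each other in these genes more than in other genes. LR replicate 1 was the highest of the 3 in 38 of 47 members (80.9%), where it was the highest in 25.4% of all genes tested, and in 14 of the 15 called members, all but IFI27. Over those 15 its level was a median of 3.29 times that of LR replicate 2 and 3.57 times that of LR replicate 3. The sum over all 56 members was 1014.5 to 1019.8 in Control, 781.2 to 844.1 in DTP, 1035.3, 1118.0 and 1450.2 in DTEP and 4452.7, 2033.0 and 2045.3 in LR. Across members the median SD on the log2 scale was 0.75 in LR, beside 0.20 over all genes, while in Control (0.08 and 0.07), DTP (0.14 and 0.17) and DTEP (0.30 and 0.33) the medians of members and of all genes lay close together. LR replicate 1 had 24545527 assigned reads, below the 25030482 of DTEP replicate 2 and above the other LR libraries.

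The calls in LR against DTEP rested on the spread shared by all groups and on that library. Without LR replicate 1, 5 of 42 members tested were called higher (DDX58, DDX60, IFI6, IFIT1 and IRF9), where 0.175% of all genes were. IFI44, OAS1 and OAS2 then no longer passed the filter, which was also so without LR replicate 2 or LR replicate 3. Their lost calls therefore say nothing about replicate 1 in particular. OAS3 had a log2 change of 1.825 without LR replicate 1. When the 6 DTEP and LR libraries were fitted alone, limma called 0 of 47 members and 0 of all 13794 genes (0%) higher. The log2 changes were the same in that fit, and the lowest adjusted p of a member was 0.266. For 37 members the unadjusted p was below 0.05, a number that was not counted over all genes. On all 12 libraries edgeR and DESeq2 each called 22 members higher, where they called 0.515% and 0.544% of all genes. Those 22 were the 15 called by limma and CMPK2, HERC5, IFIT3, OASL, PARP14, RSAD2 and UBA7. They include IFI27, IFI44, IFIT3, OAS1, OAS2 and OASL, which could be tested only because they were high in LR. The counts of edgeR and DESeq2 were not restricted to members that passed without the LR libraries.

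Genes that bring interferon signals to these targets were followed from lists by function. Of 15 interferon genes none passed the filter, and the 15 together had 3 reads in Control and as many in DTP cells, with 2 in DTEP and 8 in LR cells. IFNB1 had 2 reads, both in LR replicate 1, and IFNL1 had 2 reads in each of LR replicates 1 and 2 and in Control replicate 3. Of 9 receptor and kinase genes 2 were called, both lower in LR than in Control, where 7.8% of all genes were. IFNAR2, a chain of the type I receptor, went from 14.7, 14.7 and 12.9 in Control to 2.11, 1.27 and 1.55 in LR (log2 -2.52 ± 0.19, adjusted p = 2.85e-07). IFNLR1, of the type III receptor, went from 5.61, 5.33 and 5.68 to 0.465, 0.332 and 0.63 (log2 -2.15 ± 0.24, adjusted p = 7.52e-06). The other chains, IFNAR1 and IL10RB, were not called.

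Of 6 STAT and IRF genes that are not on the list, IRF5 alone was called, lower in DTEP than in DTP (7.02% of all genes). Its log2 change was -2.88 (adjusted p = 5.14e-07), with 0 to 0.194 in LR beside 5.38 to 6.85 in Control. Among 13 sensing and relay genes in the table, 7 were tested, and 2 were called higher in DTEP than in DTP (8.13% of all genes). MB21D1, the cytosolic DNA sensor cGAS, rose from 0 to 0.0494 in DTP to 4.35, 7.17 and 1.85 in DTEP (log2 2.30, adjusted p = 7.96e-05). IKBKE, a kinase that activates interferon regulatory factors, rose from 2.48 to 2.82 in DTP to 28.5 to 35.1 in DTEP (log2 3.19, adjusted p = 7.48e-08) and was 17.8 to 27.3 in LR. MYD88, an adaptor of Toll-like receptors, was called higher in LR than in Control (log2 2.21, adjusted p = 8.94e-08), where 5.03% of all genes were. Of the 6 brakes, SOCS3 was called higher in DTP than in Control (log2 2.11, adjusted p = 1.93e-05), where 1.01% of all genes were, and no other. All 4 interferon-induced chemokine genes (CXCL9, CXCL10, CXCL11 and CCL5) stayed below the filter, with a summed level of at most 0.792 in any library.

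Other cell types and growth state were read beside these changes. The 6 immune markers summed to 1.26 to 1.65 in LR and 2.53 to 4.98 in DTEP, and PTPRC and CD3E had no read in either group. CD68 was 2.97, 3.54 and 2.13 in DTEP and 1.31, 1.33 and 0.872 in LR, and LYZ was 1.44, 1.4 and 0.337 in DTEP and 0.296, 0 and 0.388 in LR, with log2 changes of -0.83 and -0.71 in LR against DTEP. All 5 proliferation markers (MKI67, TOP2A, CCNB1, PLK1 and RRM2) were called lower in DTP than in Control (3.9% of all genes). They were also all called higher in DTEP than in DTP (8.13% of all genes), and their median log2 change in LR against DTEP was -1.58. At the step to DTEP, where members and genes at large were called both ways, 3 of 8 luminal markers were called lower (7.02% of all genes). These were ERBB2, GRB7 and KRT8. The other 5 were not called, with log2 changes of -1.17 for KRT18, -1.04 for KRT19, 1.19 for EPCAM, 1.34 for GATA3 and 1.36 for FOXA1. Their part in the changes of interferon-stimulated genes was not tested.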

How the data were processed

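The 56 members and the other gene lists were chosen with earlier results of these data known. mRNA of 12 BT474 libraries was sequenced by the authors from stranded libraries, aligned to hg38 with Rsubread and assigned to RefSeq gene models at default settings, which ignore strand. The submitters' processing notes also name bcl2fastq and edgeR. The deposited table holds a normalised signal per gene and library. Each of its 199680 values above 0 (100%) came out as a whole number of reads within 0.001 reads once divided by the worth of 1 read, so reads were recovered, and the values equalled CPM on TMM-scaled library sizes. No column was left without a sample.

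Differential expression was tested on log2(value + 1) with limma 3.58.1 in R 4.3.3, two-sided, with a variance trend and all 12 libraries in 1 fit, for the 13794 genes that reached 1 in 3 or more libraries. Benjamini-Hochberg adjustment was made separately in the 5 comparisons, and calls needed an adjusted p under 0.05 with a log2 change beyond 2 in either direction. Folds against a group with 0 reads are lower bounds against 3 reads over the group, and ratios of reads carry exact 95% counting intervals. Alternatives were pseudocounts of 0.1 and 0.5, no filter, a filter on a mean of 5 or more, no trend, only the 6 libraries compared, TMM and median-of-ratios rescaling, the replicate number as a block, a threshold of 1 on the log2 change, edgeR 4.0.16 (quasi-likelihood) and DESeq2 1.42.0 fitted to recovered reads, and leaving out each library. On simulated reads for LR against DTEP with 200 changed genes, limma recovered 196 with 0 false calls among 13352 genes tested. The simulation gave all libraries the same spread, and the changed genes were well expressed and had large changes. It therefore cannot show how calls behave under the wider spread of the LR libraries or for genes with few reads.

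Given per library, or by range where a group was low, were the 2 members of each role with the largest change in LR against DTEP, members called in the earlier steps, and by name those too low to test. Genes of the pathway lists were named where called, with the interferons besides, and 1 gene of these lists and 1 marker are not reported here. Other values are shown because they border on these. Promoter sequences came from the RefSeq promoter table on GRCh38.p14, in which 13 members had no entry, and coordinates from RefSeq on the same build.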

Additional observations from a re-analysis of the deposited data

How the results depend on the processing

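No called change of a member turned its direction in any alternative. The median log2 change of the members in DTEP against DTP, 0.01, was too near 0 to have a stable sign, ranging from -0.18 to 0.12 over 23 alternatives and being negative in 6 of them, among them each that left out an LR library. In LR against DTEP the members called higher ranged from 5 (without LR replicate 1) to 17 (without DTEP replicate 3) when a library was left out, were 0 when only the 6 libraries compared were fitted and 29 at an absolute log2 change above 1, and DESeq2 called 2 lower. In DTP against Control an absolute log2 change above 1 gave 3 higher and 7 lower, a pseudocount of 0.1, edgeR and DESeq2 each gave 5 lower, and the median log2 change was -0.18, -0.24 and -0.24 with these 3 settings. In DTEP against DTP the lower threshold gave 12 higher and 11 lower, in DTEP against Control 8 higher and 13 lower, and in LR against Control 5 lower. Shares of all genes were not counted under these alternatives, apart from those given above for LR against DTEP. The counts therefore show only how calls of members depend on the setting. The median log2 change of DTEP against Control was -0.45 with a pseudocount of 0.1, -0.45 with edgeR, -0.54 with DESeq2 and -0.56 to -0.15 with a library left out, the lowest when an LR library was removed and 42 members instead of 47 passed the filter. Median-of-ratios rescaling shifted the median of all genes by -0.10 in DTEP against DTP and ended the call of EIF2AK2 there (1.93). Where the cause is not given here, it was not tested.

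No consistent pairing by replicate number was seen, as deviations of same-numbered libraries correlated at -0.44 to 0.36. With 3 libraries per group these correlations cannot exclude a pairing. With the replicate number as a block 14 members were called higher in LR against DTEP, 7 higher and 6 lower in DTEP against DTP and 3 lower in DTP against Control, and the call lost was that of IFI27. The share of all genes called with this block was not counted, so these numbers show only how calls of members depend on it.

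Members with few reads limit the list. A level below 0.124 to 0.173 cannot be told from 0 in a library, and 9 members were too low to test.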
